A study of Mus musculus with 20 samples.

Results

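A set of 10 genes that hippocampal neurons switch on when they fire, most of whose proteins act at or near the synapse, were followed across wake and anesthesia: Arc, Homer1, Plk2, Bdnf, Nptx2, Nrn1, Vgf, Inhba, Gadd45b and Ptgs2. They were listed by name as activity-induced synaptic effectors, by a rule that uses no measured value, though with earlier results of these data known. All 10 were found by symbol among the 32285 genes of the files. Their unique molecular identifiers (UMIs, each standing for 1 captured RNA molecule) were summed per mouse over all nuclei and over neurons gated by marker genes.

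When a neuron is depolarized, calcium entry drives a first wave of transcription factors such as Npas4, the Egr family and the Nr4a family. A later or parallel wave encodes effectors, most of which act outside the nucleus and change the synapse: scaffolds and regulators of glutamate receptors, growth factors, neuropeptide precursors and enzymes. In the hippocampus these genes are known as markers of recent activity, and their products are studied in synaptic strengthening, homeostatic scaling and memory.

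Single nuclei RNA-sequencing had been done on frozen hippocampus of 20 male mice of 4.5 to 5.5 months, labelled as wild type (WT) or as littermates carrying APP/PS1 (APPSwe/PS1ΔE9), mutant transgenes that model familial Alzheimer's disease. Mice were either in Wake or had been anesthetized for 3 h, with isoflurane (5% lowered to 1.5%) or with ketamine at 150 mg/kg and xylazine at 12 mg/kg. By their labels, 6 mice were WT in wake, 3 APP/PS1 in wake, 3 WT under isoflurane, 4 APP/PS1 under isoflurane, 2 WT under ketamine and 2 APP/PS1 under ketamine, with 1 library per mouse. The design text of the series gives other sizes for the wake and isoflurane groups than the sample labels do, and every comparison here rests on the labels. The study asked how brain state and genotype shape transcription in the hippocampus, and the 10 genes bear on the state.

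The libraries held 160777 nuclei, 4743 to 10877 per mouse, with 9243992 to 25394891 UMIs per mouse and a median of 1235 to 3169 UMIs per nucleus. Of 157472 distinct barcodes, 3251 occurred in at least 2 libraries. Mice 1 to 4 stood apart in the share of mitochondrial UMIs, with 0.939% to 1.78% against 0.0353% to 0.336% in the other mice. Some results are therefore also given without them, where stated. All 4 ketamine mice had numbers in the run 25 to 29, which they shared with only 1 other mouse, the WT wake mouse 29. Ketamine and that run could therefore be told apart only through mouse 29. Prnp, whose regulatory sequence drives the transgenes of this line, was at 67.9 to 413.8 CPM (counts scaled to the size of the library) in mice labelled APP/PS1 and 44.6 to 197.4 CPM in those labelled WT. In 4 of 9 APP/PS1 mice it was below the highest WT mouse, so genotypes are named as labelled. Between 43.2% and 70.4% of the nuclei of a mouse passed the marker gate. Slc17a7, the vesicular glutamate transporter, was not used by the gate. Its level is given in unscaled CPM (UMIs of the gene over all UMIs of the gated nuclei, with no TMM scaling). It was at 112.6 to 355.7 in CA1-like and 169.2 to 445.4 in CA3-like nuclei. In GABAergic-like nuclei it was at 12.5 to 53.1, and in nuclei gated with markers of subiculum and cortex at 45.7 to 267.1. Slc17a7 thus does not tell the glutamatergic classes apart. Summed markers of subiculum and cortex had a median of 1964 unscaled CPM in CA3-like nuclei, against 2555.5 for the CA3 markers. In CA1-like nuclei they had 633.8, against 1349 for the CA1 markers.

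Promoter windows of 6 of the 10 genes were searched for letters that factors of the activity response are known to bind and for the TATA box, the site of the general transcription machinery, and the stretches that held a match are shown for the genes where one was found. Windows ran from 250 bases before to 50 bases after each start in RefSeq (GRCm38.p6), and 13 windows matched Bdnf, Homer1, Plk2, Gadd45b, Inhba and Ptgs2. The letters were those of the cAMP response element (CRE, TGACGTCA), the AP-1 site (TGANTCA), the EGR site (GCGNGGGCG), the TATA box (TATAAA) and the CArG box, on both strands. Capitals mark the match, and all stretches are on the plus strand of the chromosome.
Plk2, CRE, chr13:110394952-110395019: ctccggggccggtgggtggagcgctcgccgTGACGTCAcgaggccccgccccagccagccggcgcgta
Bdnf, AP-1, chr2:109676850-109676916: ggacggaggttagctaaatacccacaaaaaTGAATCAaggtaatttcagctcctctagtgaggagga
Gadd45b, TATA box, chr10:80930015-80930072: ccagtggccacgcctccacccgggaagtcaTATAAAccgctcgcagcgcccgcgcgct
Inhba, TATA box, chr13:16011730-16011795: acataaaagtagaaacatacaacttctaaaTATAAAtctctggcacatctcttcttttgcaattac
The CRE of Plk2 lay 62 bases before the start and the AP-1 letters of Bdnf 152 bases before 1 of its 7 starts. The TATA letters lay 91 bases before the start of Inhba and 46 bases before that of Gadd45b. Gadd45b also held the EGR letters, on the opposite strand, 30 bases before its start. No window of Homer1 or Ptgs2 and none of the other 6 of Bdnf held any of these letters, and no window held a CArG box. Of all 32851 windows, 1.79% held a CRE, 7.81% an AP-1 site, 5.55% an EGR site, 13.6% a TATA box and 1.63% a CArG box. A match is a description of letters, and binding was not measured here.

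Under isoflurane, 2 of the 10 genes were lower than in wake in the summed nuclei, Arc by 4.81-fold and Homer1 by 1.87-fold, and none was higher. In the same comparison 2.26% of all 20540 genes tested were called lower. The median log2 fold change of the 10 genes was -0.16, against 0.00 over all genes tested. Calls are those with an adjusted p under 0.05 from edgeR's quasi-likelihood test on sums per mouse, averaged over both genotypes, and levels are CPM after TMM scaling. In sums over all nuclei, fewer cells of a type and less RNA per cell cannot be told apart. The summed GABAergic markers were at 289.1 to 360.5 unscaled CPM in wake and 214.5 to 319.2 under isoflurane, and those of CA1 at 285.2 to 435.6 and 233.0 to 360.0. Their part in the results was not tested.

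Arc (chromosome 15 of GRCm38, 74669083 to 74672570, minus strand) encodes a postsynaptic protein that promotes the endocytosis of AMPA receptors. It was at 3.82, 7.56 and 12.0 CPM (lowest, median and highest) in the 6 WT mice in wake and at 15.8, 11.0 and 6.43 CPM in the 3 APP/PS1 mice in wake. Under isoflurane it was at 2.71, 2.09 and 2.45 CPM in WT mice and at 1.73, 1.89, 1.64 and 0.954 CPM in APP/PS1 mice. The ranges did not touch: each of the 7 isoflurane mice was below each of the 9 wake mice. The log2 fold change was -2.26 ± 0.296 (SE), with a 95% interval of -2.89 to -1.64 and an adjusted p of 0.000685 by edgeR. Without mice 1 to 4 it was -2.11 (adjusted p = 0.0228). These levels rest on 1489 UMIs in 9 wake mice and 283 UMIs in 7 isoflurane mice.

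Homer1 (chromosome 13, 93299635 to 93405129, plus strand) encodes a scaffold that links metabotropic glutamate receptors to the postsynaptic density. Activity induces a short form, which sums per gene cannot separate from the long form, and 2 unverified transcripts, Gm47075 and Gm47088, overlap it on the same strand. Homer1 was at 120.2, 200 and 296 CPM (lowest, median and highest) in WT mice in wake and at 129.9, 245 and 203 CPM in APP/PS1 mice in wake. Under isoflurane it was at 68.2, 127 and 105.0 CPM in WT mice and at 77.0, 122, 128 and 109 CPM in APP/PS1 mice. Of the 7 isoflurane mice, 4 were below the lowest wake mouse and the other 3 overlapped it. The log2 fold change was -0.90 ± 0.193 (SE), with an adjusted p of 0.0107 by edgeR. Mice 1 to 4 were at the low end of their own states, and without them it was -0.87 (adjusted p = 0.0399).

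**Figure D1:**
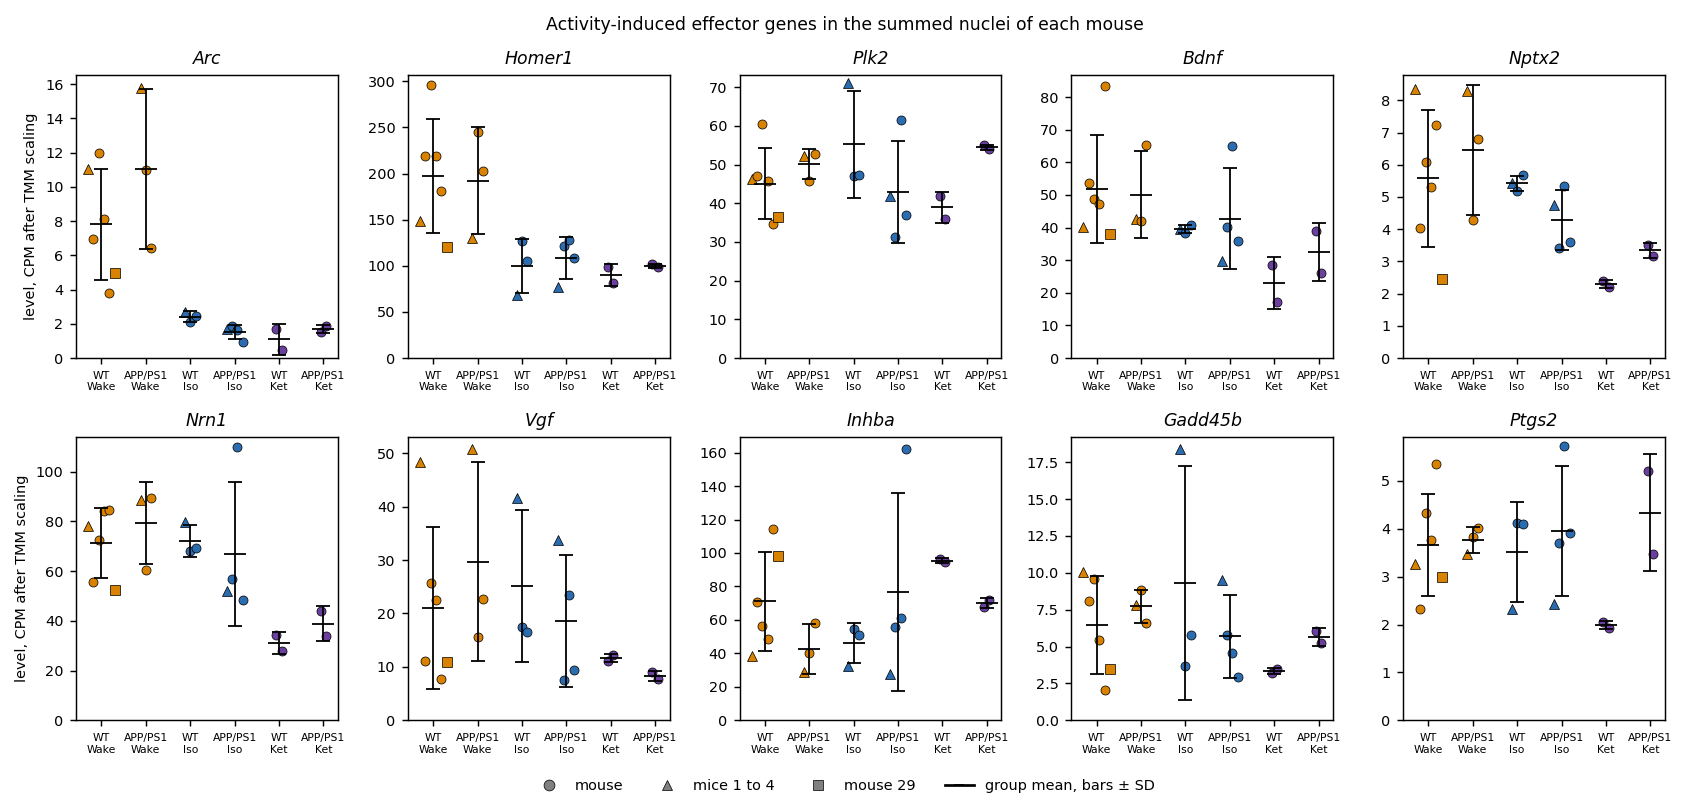
Levels of the 10 genes in the summed nuclei of each mouse (y axis, CPM after TMM scaling) by genotype and state (x axis), with group means and bars of ± SD. All 7 isoflurane and 4 ketamine mice are below the 9 wake mice for Arc. Homer1 and Nrn1 are below wake under ketamine and overlap it under isoflurane. Plk2, Bdnf, Nptx2, Vgf, Inhba, Gadd45b and Ptgs2 overlap wake under both.

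The other postsynaptic member, Plk2 (chromosome 13, 110395046 to 110400844, plus strand), a kinase of homeostatic synaptic weakening, was at 34.5 to 60.5 CPM in wake and 31.4 to 71.2 CPM under isoflurane. Its log2 fold change was 0.03, with a 95% interval of -0.28 to 0.35 (adjusted p = 0.947), so a change beyond 0.35 in either direction lay outside the interval. The direction turned without mice 1 to 4, where it was -0.06.

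None of the secreted or surface proteins passed the test under isoflurane. Bdnf (chromosome 2, 109674700 to 109727007, plus strand), the neurotrophin that signals through TrkB, was at 38.2 to 83.5 CPM in wake and 29.6 to 65.0 CPM under isoflurane, with a log2 fold change of -0.31 (95% interval -0.72 to 0.10, adjusted p = 0.411). The antisense gene Gm45346 overlaps Bdnf, and its alternative first exons were not separated. Nptx2 (chromosome 5, 144545902 to 144557478, plus strand), a secreted pentraxin that clusters AMPA receptors, was at 2.46 to 8.34 CPM in wake and 3.41 to 5.67 CPM under isoflurane (log2 fold change -0.32, adjusted p = 0.461). Nrn1 (chromosome 13, 36725361 to 36735131, minus strand), the membrane-anchored neuritin, overlaps Fars2 and Gm30177 on the other strand and had a log2 fold change of -0.11 (adjusted p = 0.804).

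Vgf (chromosome 5, 137026392 to 137033351, plus strand), a neuropeptide precursor, varied more between mice than between states. It was at 48.3 and 50.8 CPM in wake mice 1 and 2 and at 41.6 and 33.8 CPM in isoflurane mice 3 and 4, against 7.48 to 25.7 CPM in the other 16 mice. Its log2 fold change under isoflurane was -0.21 ± 0.411 (SE; adjusted p = 0.863). Inhba (chromosome 13, 16011851 to 16031621, plus strand), the subunit of activin A, was highest in isoflurane mouse 20 at 162 CPM and wake mouse 19 at 115 CPM. Its log2 fold change was 0.12 ± 0.308 (SE; adjusted p = 0.904). B230303A05Rik and Gm48444 overlap Inhba on the other strand.

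The nuclear and enzyme members did not pass the test either. Gadd45b (chromosome 10, 80930073 to 80932204, plus strand), a protein of DNA repair and demethylation, was at 2.08 to 10.1 CPM in wake and 2.91 to 18.4 CPM under isoflurane. The 18.4 CPM was mouse 3, and the log2 fold change went from 0.04 to -0.54 without mice 1 to 4. Ptgs2 (chromosome 1, 150100031 to 150108227, plus strand), the inducible cyclooxygenase, was at 2.33 to 5.35 CPM in wake and 2.32 to 5.73 CPM under isoflurane (log2 fold change 0.00, adjusted p = 0.998).

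Under ketamine, 5 of the 10 genes were lower than in wake: Arc, Homer1, Bdnf, Nptx2 and Nrn1. In this comparison 6.47% of all genes tested were called lower. The median log2 fold change of the 10 genes was -0.97, against -0.04 over all genes, and 9 of 10 were below 0. These 5 calls were lost with the runs of mouse numbers as a block, where 0 of 10 remained. The blocks were mice 1 to 4, 10 to 13, 14 to 17, 18 to 20 and 25 to 29. The labels give no batches, and the cuts within 10 to 20 were assumed. The 5 calls are given beside the values of mouse 29, the wake mouse that shared the run.

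Arc was at 1.71 and 0.461 CPM in the WT ketamine mice and at 1.53 and 1.88 CPM in the APP/PS1 ketamine mice, below all wake mice including mouse 29 at 4.99 CPM. The log2 fold change was -2.79 ± 0.391 (SE; adjusted p = 0.000969 by edgeR), and with the runs as a block it was -2.03 (adjusted p = 0.619). Homer1 was at 98.6 and 81.8 CPM in WT and 102 and 98.6 CPM in APP/PS1 ketamine mice, with a log2 fold change of -1.04 ± 0.235 (SE; adjusted p = 0.00989). Mouse 29, at 120.2 CPM, was the lowest wake mouse for Homer1.

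Nrn1 was at 34.2 and 27.9 CPM in WT and 43.9 and 33.8 CPM in APP/PS1 ketamine mice, below the 52.3 to 89.3 CPM of the wake mice, of which mouse 29 was again the lowest. Its log2 fold change was -1.11 ± 0.214 (SE; adjusted p = 0.00407). Nrn1 was also the only one of the 10 lower under ketamine than under isoflurane, by 2.00-fold (adjusted p = 0.0112), where 4.72% of all genes tested were called lower. Between these 2 anesthetics 9 of the 10 estimates were below 0, with a median of -0.56 against -0.05 over all genes. The Nrn1 call was lost with the runs as a block and when certain mice were left out alone, and fitting only the groups compared called another of the 10 genes.

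For Nptx2 and Bdnf mouse 29 lay within the ketamine range. Nptx2 was at 2.40 and 2.21 CPM in WT and 3.51 and 3.18 CPM in APP/PS1 ketamine mice, and at 2.46 CPM in mouse 29. Its log2 fold change of -1.11 ± 0.28 (SE; adjusted p = 0.0165) became -0.91 (adjusted p = 0.0635) without mice 1 to 4 and 0.19 with the runs as a block. Bdnf was at 28.6 and 17.2 CPM in WT and 38.8 and 26.2 CPM in APP/PS1 ketamine mice, and at 38.2 CPM in mouse 29, with a log2 fold change of -0.90 ± 0.242 (SE; adjusted p = 0.0228). The Bdnf call was lost when ketamine mouse 25, 26 or 28 was left out, the Nptx2 call when any 1 of mice 25 to 28 was, and the Homer1 call without mouse 25.

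The other 5 genes did not pass under ketamine. Vgf was at 7.65 to 12.2 CPM (log2 fold change -1.35, adjusted p = 0.0946), Gadd45b at 3.20 to 6.06 CPM (-0.70, adjusted p = 0.308) and Ptgs2 at 1.94 to 5.21 CPM (-0.34, adjusted p = 0.399). Plk2 was at 36.1 to 54.9 CPM (log2 fold change -0.05, 95% interval -0.42 to 0.32). Inhba was the only one with an estimate above 0, at 68.0 to 96.5 CPM (log2 fold change 0.58, adjusted p = 0.292), and mouse 29 was at 98.2 CPM. CA1-like nuclei were 2.77% to 3.83% of all nuclei in ketamine mice, 4.52% to 7.99% in wake and 4.76% to 8.30% under isoflurane. In ketamine and wake mice respectively, DG granule-like nuclei were 4.21% to 7.70% and 5.50% to 14.2%, CA3-like 1.91% to 4.46% and 3.33% to 8.29%, and GABAergic-like 2.32% to 3.45% and 3.08% to 5.55%. Oligodendrocyte-like nuclei were 11.2% to 14.5% and 2.98% to 16.4%. Nuclei gated with markers of subiculum and cortex were 3.35% to 4.93% in ketamine and 0.923% to 4.52% in wake mice. The part of these shares in the ketamine results of all nuclei was not tested, and sums over CA1-like nuclei alone are given below.

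**Figure D2:**
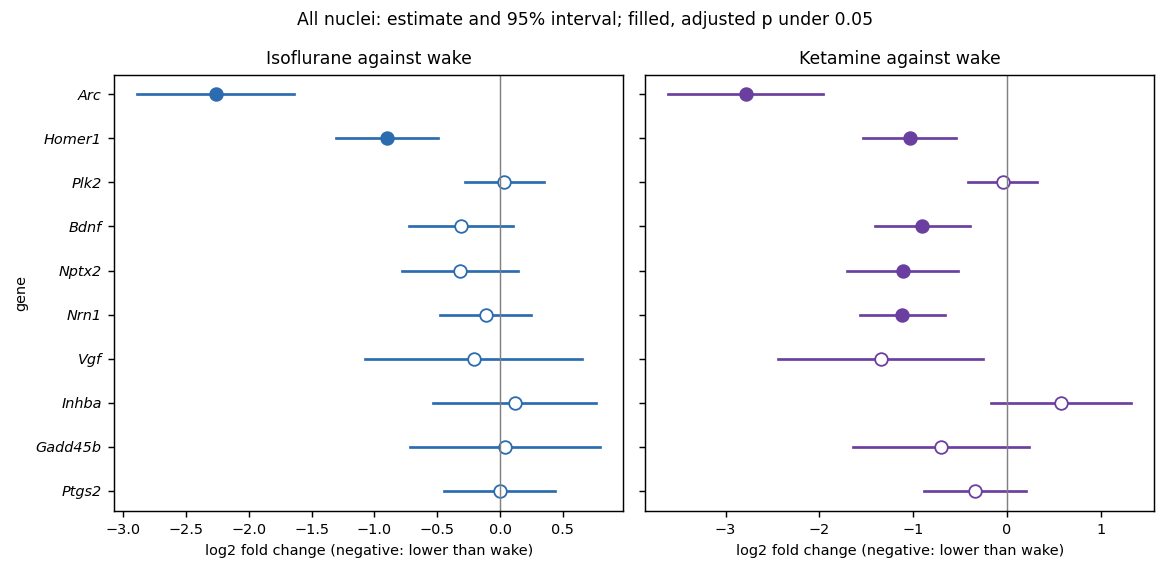
Fitted log2 fold change of each gene in all nuclei (x axis, lines for 95% intervals) for isoflurane and ketamine against wake. Filled points passed an adjusted p of 0.05: 2 genes under isoflurane and 5 under ketamine, all lower.

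Genotype was compared within wake and within isoflurane, and was not tested under ketamine. The labels were taken as given, although Prnp was below the highest WT mouse in 4 of 9 mice labelled APP/PS1. Mislabelled mice would blunt a genotype difference, and the part of the labels in the counts below was not tested. Between mice labelled APP/PS1 and WT, 0 of 10 genes were called in wake and 0 of 10 under isoflurane, and edgeR called 0% of all 20540 genes tested in either comparison. At an unadjusted p under 0.05 there were 375 genes in wake and 315 under isoflurane. Both are below a share of 0.05 of the genes tested, which that threshold gives where no gene differs and the p-values are well calibrated. Counts below that share do not show that no gene differs, and why they fell below it was not tested. The wake level of Arc was 7.82 ± 3.24 CPM (SD, n = 6) in WT mice. In APP/PS1 mice in wake it averaged 11.1 ± 4.68 CPM (SD, n = 3), and the 95% interval of the log2 difference ran from -0.27 to 1.26. The isoflurane level was 2.42 ± 0.312 CPM (SD, n = 3) in WT mice. It averaged 1.55 ± 0.411 CPM (SD, n = 4) in APP/PS1 mice, and the interval ran from -1.53 to 0.24.

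The isoflurane response was then compared between genotypes, again as labelled and with the same limit. Taken alone, 0 of 10 genes passed in WT, where 0.102% of all genes did in either direction, and 1 of 10, Arc, was lower in APP/PS1, where 0.0682% of all genes were. Arc had a log2 fold change of -1.70 (adjusted p = 0.0919) in WT and -2.83 (adjusted p = 0.0185) in APP/PS1 mice, and the second was not called without mice 1 to 4 (adjusted p = 0.17). These counts depend on the fit: with the runs of mouse numbers as a block, Arc and Homer1 passed in both WT and APP/PS1 mice (2 genes in each), and DESeq2 also called 2 in WT. The shares of all genes called in those fits are not given here, so these counts show only that the calls moved. The difference itself, tested as an interaction, was -1.14 for Arc, with a 95% interval of -2.31 to 0.03 (edgeR, adjusted p = 0.869). None of the 10 was called, with 0% of all genes called and 652 at an unadjusted p under 0.05, again below a share of 0.05. Inhba had the smallest unadjusted p of the 10, with a difference of 1.48 ± 0.631 (SE; adjusted p = 0.869). It was lower in APP/PS1 than in WT in wake (42.3 ± 14.9 CPM, SD, n = 3, against 71.1 ± 29.8, SD, n = 6) and higher under isoflurane (76.6 ± 58.9, SD, n = 4, against 46.1 ± 11.9, SD, n = 3). Mouse 20 decided the latter: it was at 162 CPM and the other 3 APP/PS1 isoflurane mice at 27.6, 55.7 and 60.9 CPM. Without it the log2 difference between genotypes under isoflurane went from 0.73 to 0.06 and the interaction to 0.81 (adjusted p = 1.0 for each without it).

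The same tests were run in 4 classes of neuron gated by markers: granule-like neurons of the dentate gyrus (DG, 15085 nuclei), CA1-like (9341) and CA3-like (8236) pyramidal neurons and GABAergic-like interneurons (6252). In wake, the genes are described over these classes by the share of nuclei with at least 1 UMI after thinning to 500 UMIs. This share was calculated from the counts of each nucleus with at least 500 UMIs, and shallower nuclei were left out. Homer1 had its highest median share in CA1-like nuclei at 13.3%, then CA3-like at 8.71%, GABAergic-like at 4.79% and DG granule-like at 4.24%, against 4.31% in oligodendrocyte precursor-like, 3.77% in microglia-like and 3.12% in oligodendrocyte-like nuclei. The DG granule-like share was thus not above the highest non-neuronal class. In oligodendrocyte-like nuclei Homer1 was at 52.2 to 105 unscaled CPM in wake, 49.1 to 69.6 under isoflurane and 64.5 to 119 under ketamine. Among the 4 classes, Plk2 was highest in CA1-like nuclei at 4.92%, against 0.894% in oligodendrocyte-like and 2.78% in vascular-like nuclei, and Vgf in GABAergic-like nuclei at 2.78%, against 0.42% in oligodendrocyte-like and 0.598% in oligodendrocyte precursor-like nuclei. Outside CA1-like nuclei the Plk2 shares of the 4 classes were below the vascular-like share. Vgf in DG granule-like nuclei was below its oligodendrocyte-like share. Nrn1, Bdnf and Inhba were highest in DG granule-like nuclei, at 5.53%, 3.71% and 3.81%, against 2.10%, 0.889% and 0.453% in oligodendrocyte-like nuclei. The highest non-neuronal shares were 2.97% for Nrn1 and 1.66% for Bdnf, both in microglia-like nuclei, and 1.08% for Inhba in astrocyte-like nuclei. In GABAergic-like nuclei Nrn1 (1.05%), Bdnf (0.333%) and Inhba (1.04%) were below these shares, and so was Nrn1 in CA1-like nuclei (2.86%). Nptx2 was highest in CA1-like nuclei at 0.488%, against 0.0711% in oligodendrocyte-like but 0.424% in oligodendrocyte precursor-like nuclei, which was above the 0.277% of CA3-like nuclei. Ptgs2 was highest in CA3-like nuclei at 0.498%, against 0.0752% in oligodendrocyte-like nuclei. Gadd45b was at 0.456% in CA3-like nuclei, its highest of the 4, against 0.269% in oligodendrocyte-like and 0.953% in vascular-like nuclei. Neuron markers (Rbfox3, Snap25 and Syt1, summed) had a median over mice of 1902 unscaled CPM in microglia-like nuclei. It was 1161.5 in vascular-like, 1068 in oligodendrocyte precursor-like, 694.3 in oligodendrocyte-like, 410.2 in astrocyte-like and 4232 in CA1-like nuclei. The gate set no upper limit on them, and their part in these shares was not tested.

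Arc was read against oligodendrocyte-like nuclei, in which neuronal effector RNA was taken as background. With nuclei of at least 500 UMIs thinned to 500, the median share with an Arc UMI in wake was 0.767% in CA1-like nuclei and 0.577% in oligodendrocyte-like nuclei. In CA3-like nuclei it was 0.349%, in DG granule-like nuclei 0.152% and in GABAergic-like nuclei 0.0854%, all at or below the oligodendrocyte-like share. Without thinning, the shares were 4.42% in CA1-like and 1.11% in oligodendrocyte-like nuclei, at median depths of 2849 and 750 UMIs. The other non-neuronal classes were lower, with 0.23% in astrocyte-like, 0.195% in microglia-like, 0.129% in oligodendrocyte precursor-like and 0% in vascular-like nuclei, so CA3-like nuclei lay above these and below oligodendrocyte-like nuclei. Arc in DG granule-like, CA3-like and GABAergic-like nuclei was thus not above the highest background class, while CA1-like nuclei were above it in the median, with overlapping ranges over mice (0.312% to 1.79% against 0.0828% to 1.03%). A smaller class gated with markers of subiculum and cortex, not among the 4 tested, had 1.19%. Arc in oligodendrocyte-like nuclei itself ran from 4.22 to 20.0 unscaled CPM in wake, 1.55 to 8.34 under isoflurane and 1.57 to 5.74 under ketamine, and its part in the results of other classes was not tested.

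**Figure D3:**
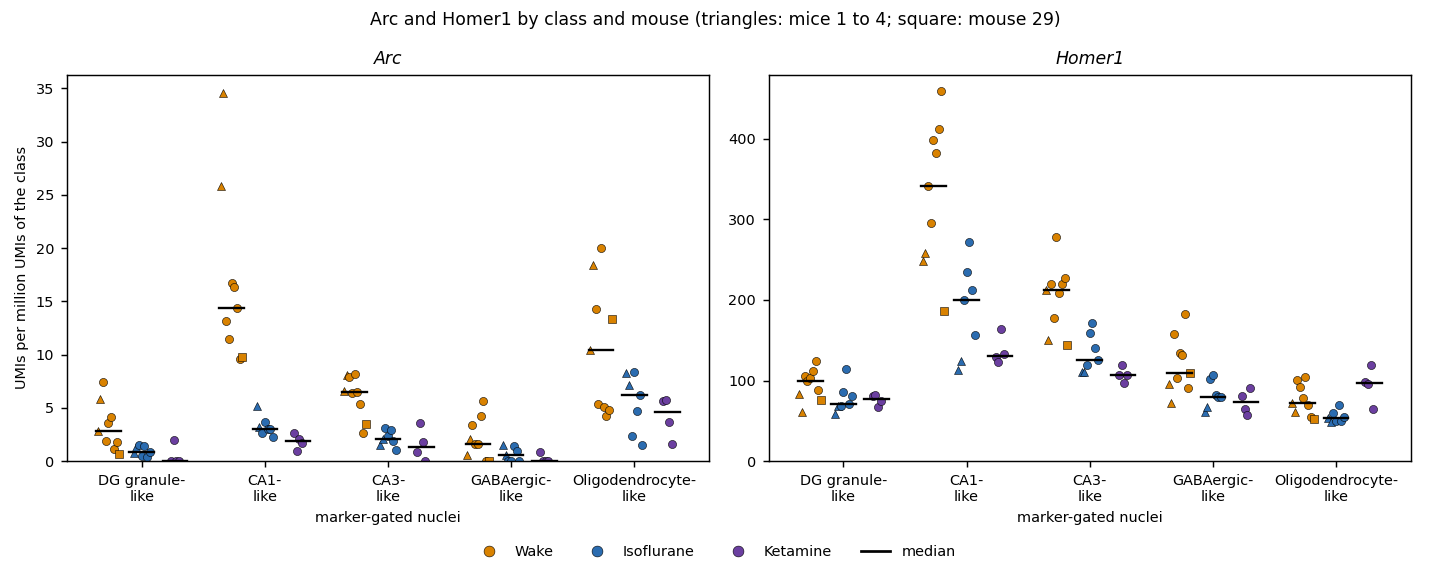
Arc and Homer1 per mouse in gated nuclei (y axis, unscaled CPM, labelled as UMIs in the plot) by class (x axis) and state (colors), with medians as bars. Arc in CA1-like nuclei is separated between wake and both anesthetics, and the wake median of Arc in oligodendrocyte-like nuclei (10.4) is above that in CA3-like nuclei (6.47).

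In CA1-like nuclei 9 of the 10 genes were tested and 2 were lower under isoflurane, where 1.74% of all genes tested were. Arc was at 10.1, 14.5 and 23.6 CPM (lowest, median and highest) in WT wake and at 32.6, 13.8 and 14.4 CPM in APP/PS1 wake mice. Under isoflurane it was at 4.51, 2.98 and 2.88 CPM in WT and 2.89, 2.89, 3.49 and 2.37 CPM in APP/PS1 mice, with no overlap between states. The log2 fold change was -2.45 ± 0.272 (SE; adjusted p = 7.22e-05 by edgeR), and -2.22 without mice 1 to 4 (adjusted p = 0.00232). Arc passed within each genotype, at -2.14 (adjusted p = 0.0279) in WT and -2.76 (adjusted p = 0.00289) in APP/PS1, where 0.0229% and 0.0687% of all genes were called lower. Within genotypes neither call held without mice 1 to 4 (adjusted p = 0.106 and 0.0995) or with a stricter marker gate (0.365 and 0.0927).

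Homer1 in CA1-like nuclei was at 205 to 483 CPM in wake and 98.6 to 269 CPM under isoflurane (log2 fold change -0.87 ± 0.22, SE; adjusted p = 0.0279). The call did not hold with a stricter marker gate, where it was -0.72 (adjusted p = 0.11), nor when any 1 of mice 3, 4, 10, 13, 17, 18 and 20 was left out. Nptx2 was at 3.58 to 25.8 CPM in wake and 2.17 to 12.4 CPM under isoflurane, with a log2 fold change of -0.79 (adjusted p = 0.247).

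Under ketamine 4 of 9 genes were lower in CA1-like nuclei, where 3.08% of all genes were: Arc, Homer1, Bdnf and Nrn1. Arc was at 2.21 and 1.63 CPM in WT and 2.95 and 0.954 CPM in APP/PS1 ketamine mice, from 1 to 3 UMIs per mouse, against 10.7 CPM from 12 UMIs in mouse 29 (log2 fold change -3.16, adjusted p = 0.0016). Bdnf was at 13.0 to 33.1 CPM under ketamine and 37.3 to 86.5 CPM in wake (log2 fold change -1.36, adjusted p = 0.0276). Homer1 was at 128 to 172 CPM (-1.24, adjusted p = 0.0151) and Nrn1 at 8.83 to 37.5 CPM against 38.5 to 72.2 CPM in wake (-1.03, adjusted p = 0.0204). The wake share of CA1-like nuclei with a Nrn1 UMI was not above that of microglia-like nuclei, which themselves held neuron markers. With the stricter gate Bdnf (adjusted p = 0.103) and Nrn1 (0.0618) were not called. None of the 4 passed with the runs of mouse numbers as a block, and with 1 mouse left out as few as 1 of the 9 genes was called.

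In CA3-like nuclei 2 of 10 genes, Arc and Homer1, were lower under isoflurane, where 0.778% of all genes were. Homer1 was at 142 to 280 CPM in wake and 98.7 to 166 CPM under isoflurane (log2 fold change -0.64 ± 0.14, SE; adjusted p = 0.0208), and Arc went from 6.14 ± 1.92 CPM (SD, n = 9) to 2.08 ± 0.832 CPM (SD, n = 7; log2 fold change -1.58, adjusted p = 0.0198), a class whose Arc share was not above that of oligodendrocyte-like nuclei. Neither was called without mice 1 to 4, where the adjusted p was 0.0812 for Homer1 and 0.227 for Arc, and each was also lost without mouse 3 or mouse 10, Arc without mouse 18 as well. Under ketamine Homer1 and Nptx2 were called lower, where 3.05% of all genes were. Homer1 was at 104 to 127 CPM (log2 fold change -0.82, adjusted p = 0.0136). Nptx2 had 0 UMIs in both WT ketamine mice and 3 and 6 UMIs in the APP/PS1 ketamine mice, so no fold is given (adjusted p = 0.03). Neither passed with the runs as a block, Nptx2 was not called without mice 1 to 4 (adjusted p = 0.0804), and leaving out mouse 25 or 27 ended the Homer1 call.

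In DG granule-like nuclei 0 of 10 genes passed under isoflurane, where 0.633% of all genes were called lower. Homer1 was at 59.5 to 124 CPM in wake and 53.2 to 113 CPM under isoflurane (log2 fold change -0.34, 95% interval -0.68 to 0.00, adjusted p = 0.403). Under ketamine 1 of 10, Nrn1, was lower, where 3.44% of all genes were, at 50.7 to 59.6 CPM against 75.8 to 132 CPM in wake (log2 fold change -1.0, adjusted p = 0.0119). That call was lost with the runs as a block (-0.63, adjusted p = 0.737) and without mouse 25 or mouse 27. Arc had 60 UMIs in the DG granule-like nuclei of the 9 wake mice, 12 in the 7 isoflurane mice and 2 in the 4 ketamine mice. In GABAergic-like nuclei 7 genes could be tested and 0 passed under isoflurane or ketamine, where 0.948% and 0.916% of all genes were called lower. Homer1 came closest there under isoflurane, at 69.4 to 182 CPM in wake and 55.8 to 110 CPM (log2 fold change -0.70, adjusted p = 0.0607). It was called there with the runs as a block, by DESeq2, with doublets left out, with no filter on genes, without mice 1 to 4, and without mouse 2 or mouse 11 alone (1 gene in each). Under ketamine Vgf was called there with no filter on genes, Homer1 without mice 1 to 4 or mouse 2 alone, and Nrn1 without mouse 3. The shares of all genes called in these alternative fits are not given, so they show only that the calls moved.

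**Figure D4:**
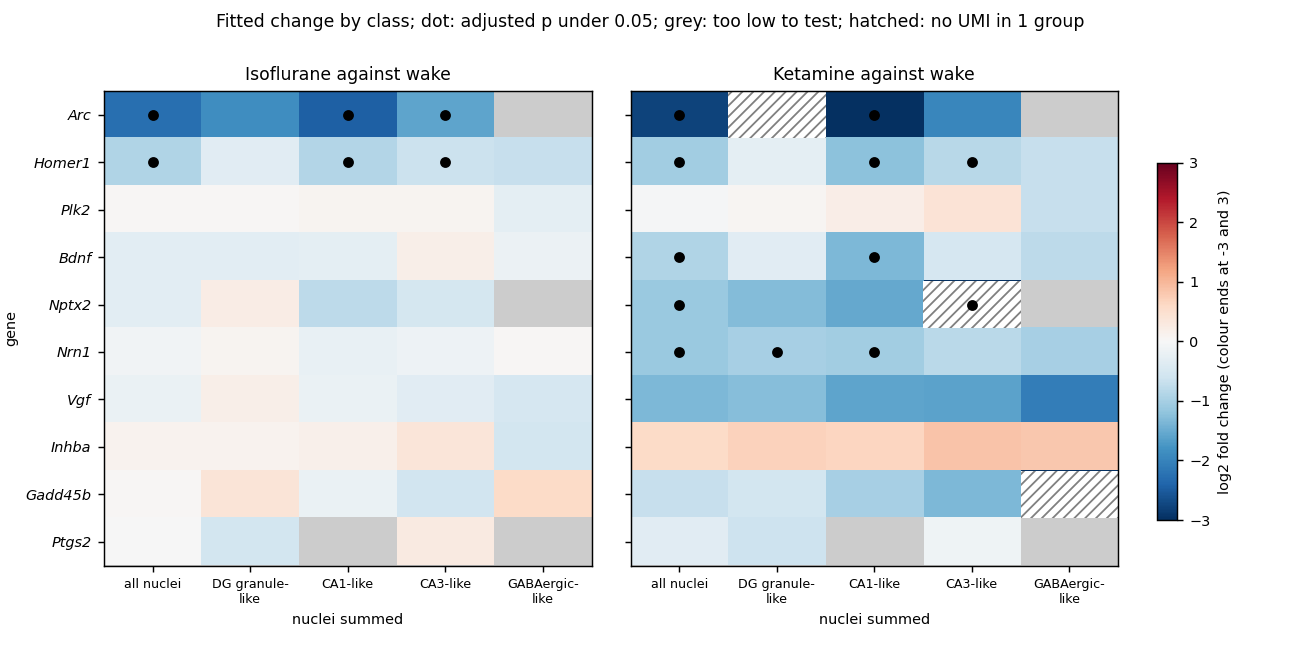
Fitted log2 fold changes of the 10 genes (rows) in all nuclei and 4 classes (columns) for isoflurane and ketamine against wake, with dots where the adjusted p was under 0.05, grey where counts were too low to test and hatching where 1 group had no UMI. Arc and Homer1 carry the isoflurane dots, in all nuclei, CA1-like and CA3-like nuclei.

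Whether the isoflurane response differed between classes was tested within mice, as the log2 ratio of a gene's level in DG granule-like nuclei to its level in another class. Of 30 such tests over 9 wake and 7 isoflurane mice, 7 had p under 0.05 by a two-sided exact permutation test and 1 passed after adjustment over the 30. That was Bdnf against CA3-like nuclei: the log2 ratio was 0.74 ± 0.26 (SD, n = 9) in wake and 0.23 ± 0.20 (SD, n = 7) under isoflurane, a difference of -0.51 (exact permutation p = 0.00122, adjusted p = 0.0367). Bdnf was at 61.4 to 138 CPM in wake and 44.5 to 104 CPM under isoflurane in DG granule-like nuclei, and at 35.0 to 69.1 and 44.8 to 80.8 CPM in CA3-like nuclei. Against CA1-like nuclei, the log2 ratio of Homer1 was 0.55 higher under isoflurane (adjusted p = 0.0524) and that of Arc 1.02 higher (adjusted p = 0.0524), neither past the threshold. The Arc ratio rests on DG granule-like levels of 3.32 CPM in wake and 0.952 CPM under isoflurane, near the pseudocount of 1 CPM, and is not read further.

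At the level of single nuclei, 262 of 4610 CA1-like nuclei in wake held at least 1 Arc UMI, against 44 of 3861 under isoflurane and 6 of 870 under ketamine. At least 2 Arc UMIs were found in 25 of the 4610 wake nuclei, spread over 7 of 9 mice. Under isoflurane there were 0 of 3861 such nuclei, which allows a share of up to 0.0777%, and under ketamine 0 of 870, which allows up to 0.345%, limits that cover counting error only. In wake, CA1-like nuclei with an Arc UMI held more Homer1 than those without, with a median over mice of 526 against 342 unscaled CPM, higher in 8 of 9 mice. Bdnf was at 123 against 46.4 unscaled CPM, higher in 7 of 9 mice, and Gadd45b at 18.8 against 7.47, higher in 8 of 9. Plk2 was at 117 against 92.4, higher in 7 of 9 mice, and Nrn1 at 73.3 against 51.5, higher in 6 of 9. Medians were lower with an Arc UMI for Inhba, at 56.5 against 69.0 (higher in 2 of 9 mice), Vgf, at 19.4 against 22.8 (5 of 9), and Ptgs2, at 0 against 2.24 (2 of 9). Nptx2 was at 12.8 against 9.93 in the median but higher in only 3 of 9 mice. In DG granule-like nuclei, where 59 nuclei held an Arc UMI, Homer1 was at 39.7 against 92.6, higher in 3 of 9 mice. It was at 305 against 204 in CA3-like nuclei (100 with an Arc UMI), higher in 5 of 9 mice, and at 745 against 187 in the subiculum and cortex class (114 with an Arc UMI), higher in 8 of 9. CA1-like wake nuclei with an Arc UMI were also deeper than those without, with a median of 3740 against 2820 UMIs, as were those of CA3-like nuclei (4640 against 3830) and of the subiculum and cortex class (3280 against 2210), while in DG granule-like nuclei it was 1850 against 1950, and the part of depth in these values was not tested.

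Genes that are not among the 10 were taken from 3 lists: activity-induced transcription factors, other activity-induced effectors, and receptors, binding partners and relatives of the 10. Of 18 activity-induced transcription factors, all tested, 7 were lower under isoflurane and 0 higher, where 2.26% of all genes were called lower, with a median log2 fold change of -0.70. The 4 with the smallest p are named. Npas4, a neuron-specific activity factor, had -1.92 (adjusted p = 0.000315 by edgeR) and Egr4 -1.44 (adjusted p = 0.0153), while Nr4a2 had -0.82 and Nr4a3 -1.12. Nr4a3 was at -1.24 and not called without mice 1 to 4 (adjusted p = 0.0557), and the other 3 named were called. All 4 named were called with the runs of mouse numbers as a block, Nr4a3 at -0.97 (adjusted p = 0.00284). Under ketamine, where 6.47% of all genes were called lower, 7 were lower and 1, Jun, was higher, at 1.21 (adjusted p = 0.0355), with a median of -0.49. Over all genes 5.92% were called higher under ketamine. Of the 18 estimates 12 were below 0. Among those above 0 and not called were Fos at 1.98 (adjusted p = 0.0718), Btg2 at 1.13 and Egr1 at 0.37. Npas4 had -3.18 (adjusted p = 4.48e-05) and Egr4 -2.93 (adjusted p = 0.00153), followed by Nr4a3 at -1.80 and Nr4a1 at -1.0. With the runs of mouse numbers as a block Npas4 was still called, at -3.10 (adjusted p = 0.00676), and Egr4, Nr4a3, Nr4a1 and Jun were not. Between ketamine and isoflurane, Fos and Egr1 were called higher under ketamine and Egr4 and Npas4 lower. Of all genes, 4.05% were called higher and 4.72% lower in that comparison.

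Of 18 other activity-induced effectors, 5 were lower under isoflurane (2.26% of all genes were), of which Tiparp (log2 fold change -0.63, adjusted p = 0.00577), Pcsk1, the prohormone convertase that processes neuropeptide precursors (-1.14, adjusted p = 0.0103), Baz1a (-0.92) and Frmd6 (-0.50) had the smallest p. The median was -0.31. Under ketamine 4 were lower (6.47% of all genes were), Pcsk1 (-1.64, adjusted p = 0.00323), Tiparp (-0.60), Syt4 (-1.10) and Frmd6 (-0.41), with a median of -0.15, and none of the 4 with the runs as a block. Without mice 1 to 4, Tiparp (-0.57), Pcsk1 (-1.16), Baz1a (-0.97) and Frmd6 (-0.51) were not called under isoflurane (adjusted p = 0.0577 to 0.0999 by edgeR). With the runs as a block these 4 were all called under isoflurane (adjusted p = 0.001 to 0.00934).

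Receptors, binding partners and relatives of the 10 genes were 36 genes, read against 2.26% of all genes called lower under isoflurane and, under ketamine, 6.47% lower and 5.92% higher. Of the 36, 1 was lower under isoflurane, Inhbb, the other activin subunit (log2 fold change -0.85, adjusted p = 0.0168), and the median was -0.17. Under ketamine 4 were lower: Inhbb (-0.98), Nptxr, the receptor of neuronal pentraxins (-0.68), Ntrk2, the receptor of Bdnf (-0.52), and Shank1, a scaffold that binds Homer proteins (-0.50). Fst, the activin antagonist follistatin, was higher under ketamine (2.00, adjusted p = 0.0135), as was Gadd45a, a relative of Gadd45b (1.35, adjusted p = 0.00709). Inhbb under isoflurane was at -0.86 and not called without mice 1 to 4 (adjusted p = 0.13). With the runs as a block it was at -0.91 and called (adjusted p = 0.0104), while none of the 6 ketamine calls passed with that block.

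Across the 20 mice, the genes whose levels most resembled the mean profile of the 10 were Ndfip2 (Pearson r = 0.913), Cnppd1 (0.892), Akirin1 (0.888), 1700016P03Rik (0.887) and Bpnt1 (0.886), out of 20530 genes that were not members. The mice share states, runs and depths, so these values describe likeness only.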

How the data were processed

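Hippocampal nuclei of 20 mice had been sequenced by a droplet method that reads the 3' end of RNA (10x Genomics), with 1 library per mouse. The deposited values are whole-number UMI counts per gene and nucleus, which the authors made with Cell Ranger 5.0.0 against mm10 with intronic reads included. The study's methods also name CellBender, a correction for free RNA, while the file headers name Cell Ranger alone, so whether that correction is in the deposited counts is not given in the sources used here. The members and all gene lists were chosen with earlier results of these data known.

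Counts were summed per mouse over all nuclei and over nuclei gated by markers, which needed UMIs of at least 2 markers of a class, a margin of 0.5 SD to the next class and, for neurons, 1 neuron marker. Nuclei that looked like doublets were kept, and the 6% with the highest scores (scanpy 1.11.5) were left out as an alternative. Sums of all 20 mice were fitted in 1 model of 6 groups with edgeR 4.0.16 in R 4.3.3 (TMM scaling, filter on low counts by group, quasi-likelihood test), with Benjamini-Hochberg adjustment over all genes tested and a threshold of 0.05. Log2 ratios between classes used CPM plus a pseudocount of 1 and an exact permutation test over mice (SciPy 1.17.1). Scripts were tested on simulated data. The 10 genes were named in each comparison, and of the other lists the called genes, or the 4 with the smallest p per direction. Alternatives were DESeq2 1.42.0, its size factors, no filter on genes, the runs of mouse numbers as a block, only the groups compared, nuclei with at least 500 genes, a stricter gate of 3 markers, doublets left out and each mouse left out. Leaving out mice 1 to 4 and mice 25 to 29 was chosen after seeing the data. Total counts per mouse were 9243992 to 25394891 UMIs. Replicates are separate mice. Shares of nuclei and limits for a count of 0 (3 counts) cover counting error only.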

Additional observations from a re-analysis of the deposited data

Results flagged for a closer look

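For each of the 10 genes, the gap between the highest or lowest mouse and its nearest neighbour was compared with the range of the group in the 6 WT wake mice and in the 4 APP/PS1 isoflurane mice, the only groups of at least 4. Of these 20 comparisons 2 stood out. Chance alone gives about 1 in 20. Bdnf was at 83.5 CPM in WT wake mouse 19, and the nearest of the other 5 WT wake mice was at 53.5 CPM. Nrn1 was at 110.0 CPM in APP/PS1 isoflurane mouse 15, and the nearest of the other 3 was at 57.0 CPM. Without these mice the isoflurane calls in all nuclei stayed at Arc and Homer1.

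The isoflurane response of Bdnf differed between DG granule-like and CA3-like nuclei by -0.51 on the log2 scale (adjusted p = 0.0367 over 30 exact permutation tests). The fitted log2 fold change was -0.31 in the former and 0.18 in the latter, and neither passed on its own.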

How the results depend on the processing

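Each mouse number occurs once, so mice could not be paired by number, and blocks of neighbouring numbers were fitted in their place. The blocks were mice 1 to 4, 10 to 13, 14 to 17, 18 to 20 and 25 to 29. Numbers 10 to 20 have no gap, so the cuts within them were assumed. The paper describes tissue handled in batches of 4 that drew on each of its experimental groups, and its own test corrected for batch. Mice 1 to 4 and mice 14 to 17 each held both genotypes in wake and under isoflurane. The labels do not say which mice shared a batch, and the main fit here had no block. With the runs of mouse numbers as a block, 0 of the 10 genes were called under ketamine in all nuclei, DG granule-like, CA1-like and CA3-like nuclei, and 0 between ketamine and isoflurane, while isoflurane gave 2 in WT, 2 in APP/PS1 and 1 (Homer1) in GABAergic-like nuclei. The stricter gate gave 1 for isoflurane and 2 for ketamine in CA1-like nuclei. Without mice 1 to 4 there were 0 for isoflurane and 1 for ketamine in CA3-like nuclei, 1 for each in GABAergic-like nuclei and 0 for isoflurane in APP/PS1. With no filter on genes, ketamine gave 5 in CA3-like and 1 in GABAergic-like nuclei, and isoflurane 1 in GABAergic-like nuclei. DESeq2 gave 1 for isoflurane in GABAergic-like nuclei and 2 in WT, leaving out doublets gave 1 in GABAergic-like nuclei, and fitting only the groups compared gave 0 for isoflurane in APP/PS1 and 2 between ketamine and isoflurane. With a pseudocount of 5, 3 of the 30 class differences passed against 1. The cause of these shifts was not tested. Shares of all genes called under the alternatives are not given, so the counts show only how the calls of the 10 genes moved.

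With each mouse left out in turn, counts under isoflurane ran from 2 to 2 in all nuclei, 1 to 2 in CA1-like, 0 to 2 in CA3-like, 0 to 1 in DG granule-like and 0 to 1 in GABAergic-like nuclei, 0 to 0 in WT and 0 to 1 in APP/PS1. Under ketamine they ran from 2 to 5, 1 to 4, 0 to 4, 0 to 2 and 0 to 1 in the same order of classes, and from 0 to 2 between ketamine and isoflurane. Both genotype comparisons and the interaction stayed at 0.

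Signs turned for genes that were not called under isoflurane. Gadd45b went from 0.04 to -0.54 without mice 1 to 4, -0.01 without mice 25 to 29 and -0.44 to 0.23 with a mouse left out. Inhba had -0.05 with the block and -0.22 to 0.26 with a mouse left out, Plk2 -0.06 without mice 1 to 4 and -0.08 to 0.10, Vgf -0.49 to 0.11, and Ptgs2 0.15 without mice 1 to 4, 0.00 with only the groups compared and -0.12 to 0.11. Under ketamine the block turned Gadd45b to 0.29, Inhba to -0.10, Nptx2 to 0.19, Plk2 to 0.33, Syt4 to 0.09 and Frmd6 to 0.07, and Plk2 ran from -0.10 to 0.00 with a mouse left out.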

Other observations

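In CA1-like nuclei under isoflurane, Homer1 was at 191 against 200 unscaled CPM in nuclei with and without an Arc UMI, higher in 4 of 7 mice, with 44 nuclei holding one. None of the estimates of Inhba under ketamine was called, and all 5 sets of nuclei had estimates above 0 (0.58, 0.69, 0.64, 0.86 and 0.80 in all, DG granule-like, CA1-like, CA3-like and GABAergic-like nuclei). The 5 sets come from the same mice, and all nuclei include the classes. In all nuclei wake mouse 29 was above every ketamine mouse, and with the runs as a block the estimate was below 0.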
